A study of Mus musculus with 6 samples.

Results

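The 36 genes described here make up the unfolded protein response and the folding machinery of the endoplasmic reticulum (ER), the compartment in which secreted and membrane proteins are made. They were chosen by function, with earlier results of these data known, and each gene was followed through the probe sets whose only annotated symbol was that gene. Of 18193 genes with such a probe set, these were 36. By role they were 6 ER stress sensors and the transcription factors under them, 11 chaperones and their partners, 5 genes of disulphide formation, 8 genes of ER-associated degradation, 2 subunits of the translocation channel and 4 targets of the integrated stress response. They had 87 probe sets, of which 79 were bright enough to be tested, and all 36 genes had at least 1 tested probe set. For the 26 genes that had more than 1, the brightest probe set on average stands for the gene, and what the other tested probe sets showed is said beside it.

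The samples were 6 pools of mouse cumulus-oocyte complexes, each an oocyte with the layer of somatic cumulus cells around it, hybridised as biotin-labelled cRNA to 1 Affymetrix array per pool. All came from wild type immature females given equine chorionic gonadotropin (eCG), which makes follicles grow, for 48 h. The groups were complexes with no hCG, complexes 8 h after human chorionic gonadotropin (hCG), which acts as the ovulatory signal, and complexes 16 h after hCG, with 2 arrays in each. Strain is not given in the labels, animals were pooled, and nothing says that both replicates of a group came from separate animals, so p-values measure the spread between these arrays, which may be technical. The labels place the complexes without hCG in the ovary and those of both later times in the oviduct, so hormone and place of collection cannot be told apart. The labels also call the complexes without hCG expanded, a word left unexplained there. The 8 h site is itself in doubt, since ovulation is usually not over by then.

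Proteins that enter the ER are bound by chaperones, given disulphide bonds and sugar chains, and shipped onward once folded. Those that fail are pulled back into the cytosol and destroyed, a route called ER-associated degradation. When unfolded protein accumulates, the membrane sensors IRE1, PERK and ATF6 start the unfolded protein response, which slows translation and raises the transcripts of chaperones and degradation genes. After the ovulatory signal, cumulus cells secrete a large hyaluronan-rich matrix with its binding proteins, so they are secretory cells at that stage.

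Many of these genes carry an ER stress response element, the sequence that ATF6 and XBP1 are known to read together with the factor NF-Y, and it is shown here to set its letters beside the changes of the genes that carry it. The element was searched as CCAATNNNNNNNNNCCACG on both strands of the 300 bases from 250 before to 50 after each start site, in RefSeq promoter windows of mouse build GRCm38.p6. It contains the shorter motifs CCAAT and CCACG. Windows were found for 31 of the 36 genes. Atf6, Hyou1, Manf, Derl1 and Sec61a1, all called in at least 1 comparison, were not searched. The element stood in 10 of these 31 genes (32.26%), against 37 of 27025 genes in the whole table (0.14%). The 5 genes below with a called change and a match, and Hspa5, the textbook case, show the matched bases, with the fixed letters in capitals and the 9 free positions in lower case.
Derl3 (chr10:75893242-75893260, minus strand): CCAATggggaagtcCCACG
Creld2 (chr15:88819520-88819538, minus strand): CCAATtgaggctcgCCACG
Ero1b (chr13:12565682-12565700, minus strand): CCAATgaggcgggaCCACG
Syvn1 (chr19:6046532-6046550, plus strand): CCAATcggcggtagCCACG
Pdia6 (chr12:17266491-17266509, plus strand): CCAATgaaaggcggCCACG
Hspa5 (chr2:34772025-34772043, plus strand): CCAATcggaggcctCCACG
Distances are from the start site of each window. The match ended 26 bases before it in Syvn1 and 47 bases before it in Hspa5. Of the 6 matches shown the one in Ero1b lay farthest out, between 201 and 183 bases before the start. The Ero1b gene is annotated from position 12565818, before the start site of its window, so the match lies nearer to that annotated start. In Derl3, Creld2 and Ero1b it ran on the strand opposite to the gene.

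Syvn1 and Derl3, which encode parts of one degradation machine and moved in opposite directions at 8 h, are shown with the whole 250 bases before their start sites, both on the plus strand. Capitals mark the fixed letters of the element. In the Derl3 stretch they read as its reverse complement.
Syvn1 (chr19:6046326-6046575): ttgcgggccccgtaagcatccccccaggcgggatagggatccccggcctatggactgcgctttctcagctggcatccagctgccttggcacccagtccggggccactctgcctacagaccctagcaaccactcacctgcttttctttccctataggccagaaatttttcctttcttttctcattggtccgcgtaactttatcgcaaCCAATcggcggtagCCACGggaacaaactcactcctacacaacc
Derl3 (chr10:75893148-75893397): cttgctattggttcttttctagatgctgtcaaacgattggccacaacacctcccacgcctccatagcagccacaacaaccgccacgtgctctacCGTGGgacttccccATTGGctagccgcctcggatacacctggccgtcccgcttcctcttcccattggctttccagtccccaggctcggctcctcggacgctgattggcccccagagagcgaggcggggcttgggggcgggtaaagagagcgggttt
A related element, searched as ATTGG, 1 free base and CCACG, stood in the windows of Dnajb11 and Herpud1 (12 of 27025 genes, 0.04%). The core TGATGNAA, read by ATF4 with C/EBP factors, stood in those of Asns, Chac1, Herpud1 and Trib3 (12.9% of the 31 genes, against 4.51% of all genes). The core TGACGTG stood in that of Hspa5 (3.23% of the 31 genes, against 2.22% of all genes). A match describes the letters of the window and is not evidence that a factor bound there.

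Within a group, the arrays correlated with Pearson's r of 0.9909 without hCG, 0.9956 at 8 h and 0.9945 at 16 h over all probe sets, against 0.9433 to 0.9785 across groups. Markers of several cell types differed between the groups. Intensities of 22 oocyte markers, summed per array on the linear scale, were 74044 to 85143 without hCG, 17477 to 18248 at 8 h and 23958 to 26870 at 16 h, and all 20 tested were lower at both later times than without hCG. Sums of 20 leukocyte markers were 4594 to 4703, 4110 to 4218 and 11514 to 11767 at the same stages, and 17 of 18 tested were higher at 16 h than at 8 h. Ptprc was among those called higher, and the listed markers Itgam and S100a9 were dim on every array. Oviduct epithelium markers summed to 3352 to 3648, 2144 to 2186 and 9521 to 11093 (10 genes, with Pax8 and Foxj1 dim on every array). Theca and stroma markers summed to 3975 to 4387, 2254 to 2913 and 1884 to 1969 (10 genes, Lum dim on every array). Endothelial sums were 722 to 743, 910 to 1036 and 991 to 1019 (9 genes, 4 of them dim on every array, among them Pecam1). Of 4 endothelial markers tested, Cdh5 was called higher at 8 h, and Cdh5 and Kdr at 16 h against no hCG. Erythrocyte sums were 385 to 429, 286 to 301 and 313 to 485 (3 genes). In these bulk pools fewer cells of a type and less RNA per cell cannot be told apart, and the part of the cell mix in the changes below was not tested.

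Changes are differences of log2 intensities between group means, ± the standard error of a limma fit to all 6 arrays, with p-values adjusted by the Benjamini-Hochberg method over 27022 tested probe sets. A change is called at an adjusted p under 0.05. At 8 h against no hCG, 7 of the 36 genes rose (19.4%) and 3 fell (8.33%), where 16.9% of 13559 tested genes rose and 20.5% fell. At 16 h against 8 h, 5 rose and 5 fell (13.9% each), against 11.8% and 9.12% of all genes. At 16 h against no hCG, 10 rose (27.8%) and 6 fell (16.7%), against 20.8% each way over all genes. The share that rose was thus near the background in the first and second comparisons. The widest gap from the background was in the share that fell at 8 h, 8.33% against 20.5%. These gaps were not tested. The median difference of the 36 genes was 0.17, 0.12 and 0.30 in these comparisons, beside −0.02, 0.01 and −0.02 over all tested genes. In all, 21 genes were called in at least 1 comparison and 15 in none. The comparisons share arrays and are not independent of each other.

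**Figure D1:**
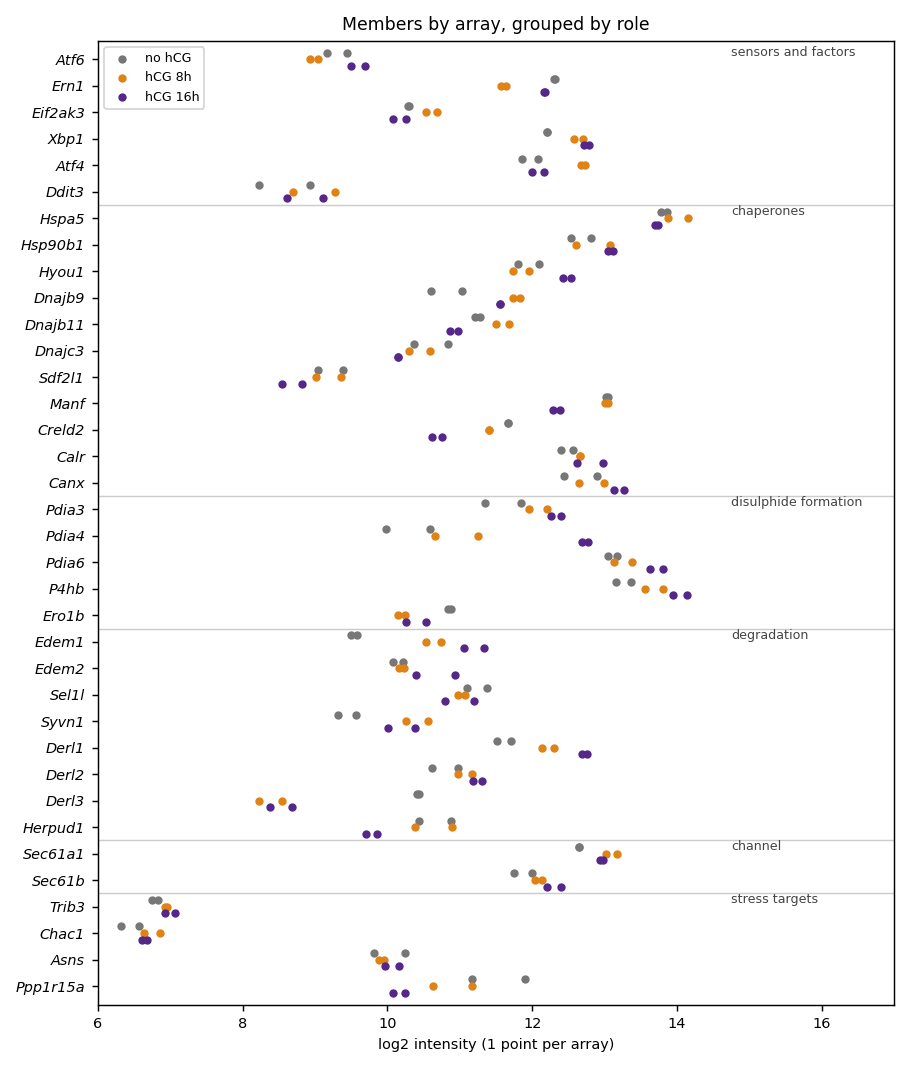
Log2 intensity (horizontal axis) of each of the 36 genes, 1 point per array, in the order of their roles, for complexes without hCG (grey), 8 h after hCG (orange) and 16 h after hCG (purple). Positions of different genes come from different probe sets and are not to be set against each other. Pdia4 at 16 h (12.68 and 12.77) and Derl3 without hCG (10.43 and 10.41) stand farthest from their other groups.

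**Figure D2:**
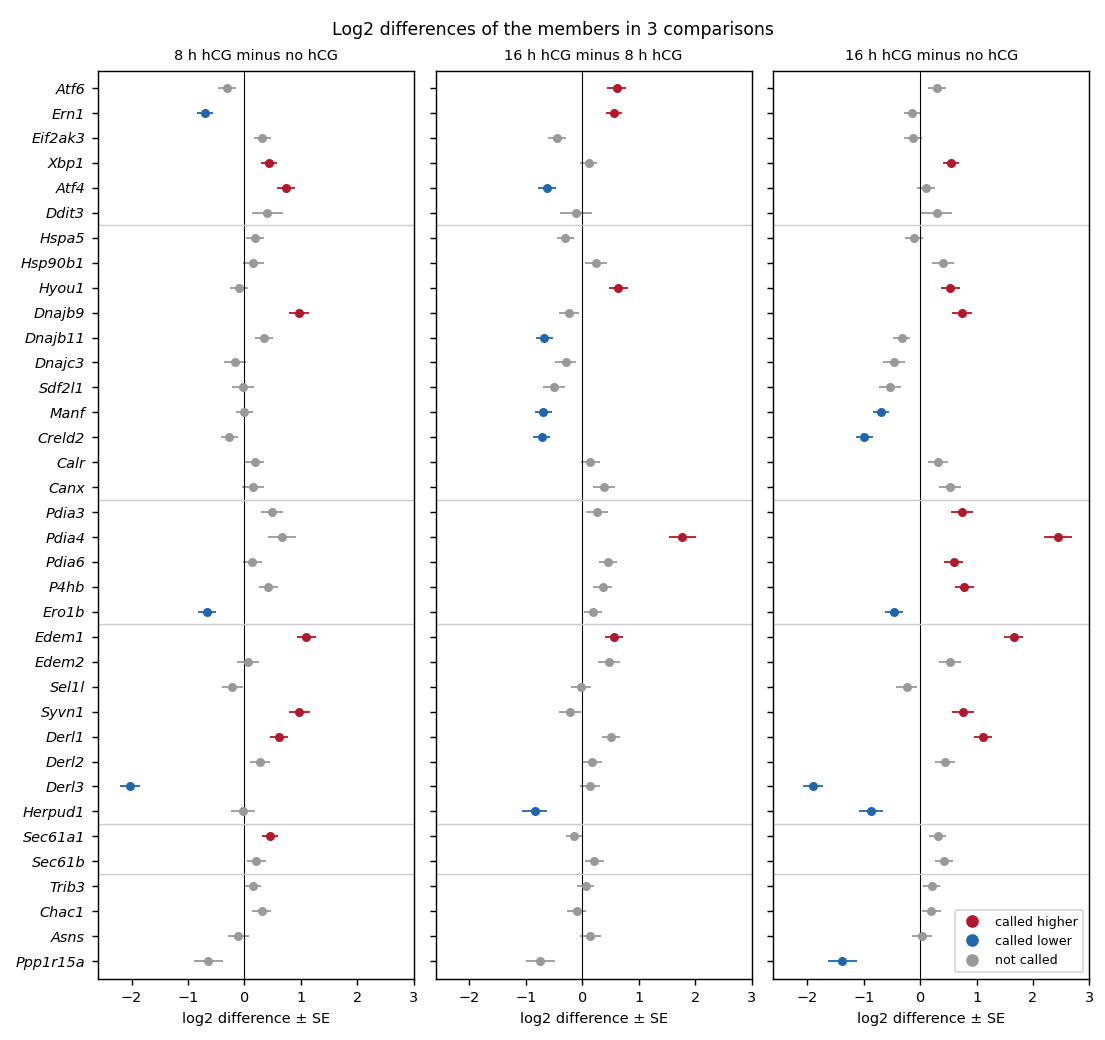
Log2 difference ± SE of each gene for the 8 h, the 16 h against 8 h and the 16 h against no hCG comparison (panels, left to right), red where called higher, blue where called lower and grey where not called. Genes called in a comparison number 10, 10 and 16, spread over both directions in each panel.

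At 8 h none of the 3 sensor genes rose over no hCG by its brightest probe set. Of the 3 transcription factor genes, Xbp1 and Atf4 did. Among these 6 genes 2 rose and 1 fell at 8 h (33.3% and 16.7%), where 16.9% and 20.5% of all tested genes did. From 8 h to 16 h 2 rose and 1 fell (33.3% and 16.7%), against 11.8% and 9.12%. At 16 h against no hCG 1 rose and none fell (16.7% and 0%), against 20.8% each way. Ern1, which encodes IRE1, the kinase and nuclease that splices Xbp1 mRNA, had 12.31 and 12.30 without hCG, 11.57 and 11.64 at 8 h and 12.16 and 12.18 at 16 h. Both 8 h arrays lay below all others, and no groups overlapped. Ern1 fell by 0.70 ± 0.15 at 8 h (adjusted p = 0.00448) and rose by 0.57 ± 0.15 from 8 h to 16 h (0.0246). Its probe sets disagreed: of the other 2 tested, one was called higher at 8 h (0.47, adjusted p = 0.0316) and at 16 h against no hCG (0.60, 0.00941), and one was not called (0.34 at 8 h). When its probe sets were averaged, the 8 h difference was 0.11 (adjusted p = 0.503), so no direction holds for Ern1 across its probe sets. Atf6 encodes a membrane-bound factor that is cut free in the Golgi. Its arrays read 9.44 and 9.16 without hCG, 9.04 and 8.94 at 8 h and 9.70 and 9.50 at 16 h. The 8 h arrays were lowest and the 16 h arrays highest, with a rise of 0.61 ± 0.17 from 8 h to 16 h (adjusted p = 0.0307), whereas 16 h against no hCG was not called (0.30 ± 0.17, 0.197). A second Atf6 probe set was higher at 16 h by both comparisons (0.65 and 1.18, adjusted p = 0.0433 and 0.000975), and the remaining one was not called in either. Averaged over its probe sets, Atf6 was called higher at 16 h against no hCG (0.52, 0.00681). Eif2ak3 encodes PERK, the kinase that phosphorylates the initiation factor eIF2alpha. It had 10.28 and 10.30 without hCG, 10.53 and 10.68 at 8 h and 10.25 and 10.07 at 16 h, with the 8 h arrays highest and no groups overlapping, but was called in no comparison (0.32 ± 0.16 at 8 h, adjusted p = 0.152).

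The transcription factor genes followed separate courses. Xbp1, whose spliced mRNA encodes the active factor, had 12.20 and 12.20 without hCG, 12.57 and 12.70 at 8 h and 12.71 and 12.78 at 16 h. Every array after hCG lay above both arrays without it. Xbp1 rose by 0.44 ± 0.15 at 8 h (adjusted p = 0.0479) and by 0.55 ± 0.15 at 16 h against no hCG (0.0164). Of its 3 other probe sets, 2 rose in both comparisons, by 0.77 and 0.72 at 8 h and by 0.92 and 0.89 at 16 h, and the remaining one was not called. The arrays' probe sets were not assigned to the spliced or the unspliced form, so splicing was not measured. Atf4 encodes the factor whose translation goes up when eIF2alpha is phosphorylated. It had 12.08 and 11.86 without hCG, 12.67 and 12.73 at 8 h and 12.16 and 11.99 at 16 h. The 8 h arrays lay above all others, and the groups without hCG and at 16 h overlapped. Atf4 rose by 0.74 ± 0.16 at 8 h (adjusted p = 0.00564) and fell by 0.63 ± 0.16 from 8 h to 16 h (0.0224). A second probe set rose as much at 8 h (0.74, adjusted p = 0.00667), but its difference from 8 h to 16 h was not called (−0.51, 0.0635), and the remaining one was not called at all. On averaging the probe sets, the 8 h to 16 h call was lost (−0.37, 0.0625). Ddit3 encodes CHOP, a factor of prolonged stress. Its arrays read 8.93 and 8.22 without hCG, 9.27 and 8.70 at 8 h and 9.12 and 8.62 at 16 h, so all groups overlapped, and no comparison was called (0.41 ± 0.28 at 8 h, adjusted p = 0.318). A second Ddit3 probe set was not called either. On leaving out 1 array at a time, the Xbp1 call at 8 h was lost in all 6 cases (adjusted p 0.0663 to 0.28) and that at 16 h against no hCG without either 16 h array (0.0554 and 0.0807). The Atf4 call at 8 h was lost without replicate 2 of the 8 h group (0.052), and the calls of Atf4, Atf6 and Ern1 from 8 h to 16 h without any 1 of the 4 compared arrays (0.0669 to 0.187).

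Among the 11 chaperone genes, 1 rose at 8 h and none fell (9.09% and 0%), where 16.9% and 20.5% of all tested genes did. From 8 h to 16 h 1 rose and 3 fell (9.09% and 27.3%), against 11.8% and 9.12% of all genes. At 16 h against no hCG 2 rose and 2 fell (18.2% each), against 20.8% each way. Hspa5 encodes BiP, the main ER chaperone and the usual readout of the unfolded protein response. It had 13.78 and 13.86 without hCG, 13.87 and 14.15 at 8 h and 13.73 and 13.69 at 16 h, with the 8 h arrays highest and no groups overlapping. The differences were small and not called, at 0.19 ± 0.16 for 8 h against no hCG (adjusted p = 0.43), −0.30 ± 0.16 for 16 h against 8 h (0.261) and −0.11 ± 0.16 for 16 h against no hCG (0.645). Each of its 2 other probe sets was called lower in 1 comparison, one at 16 h against 8 h (−0.54, adjusted p = 0.0429) and the other at 16 h against no hCG (−0.61, 0.0282). The large chaperone genes Hsp90b1, which encodes GRP94, and Calr and Canx, which encode the sugar-binding chaperones calreticulin and calnexin, were not called by their brightest probe sets, with differences of 0.40, 0.32 and 0.53 at 16 h against no hCG. A dimmer Canx probe set was called there (1.02, adjusted p = 0.0048), and the standing one was without replicate 2 of no hCG (0.76, 0.0127). The other probe sets of Hsp90b1 and Calr were not called in any comparison. Hyou1, a partner that exchanges nucleotide on BiP, rose by 0.63 ± 0.17 from 8 h to 16 h (adjusted p = 0.0279) and by 0.54 ± 0.17 at 16 h against no hCG (0.0308). Of its 2 other probe sets, one rose at 16 h against no hCG (0.82, 0.00306), and neither was called from 8 h to 16 h (0.39 and −0.21). Averaged over its probe sets, Hyou1 differed by 0.27 from 8 h to 16 h and was not called (0.195).

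The J-domain partners of BiP diverged. Dnajb9 encodes ERdj4, which also restrains IRE1, and had 10.60 and 11.03 without hCG, 11.74 and 11.83 at 8 h and 11.56 and 11.55 at 16 h. Both arrays at 8 h lay above both at 16 h, and those above both without hCG. Dnajb9 rose by 0.98 ± 0.18 at 8 h (adjusted p = 0.0021), 1.97-fold, and by 0.74 ± 0.18 at 16 h against no hCG (0.00851). Dnajb11 encodes ERdj3, a soluble partner that hands unfolded chains to BiP. It had 11.21 and 11.28 without hCG, 11.50 and 11.68 at 8 h and 10.97 and 10.87 at 16 h, highest at 8 h and lowest at 16 h. It fell by 0.67 ± 0.15 from 8 h to 16 h (adjusted p = 0.0139) and was not called against no hCG at either time (0.35 ± 0.15 and −0.33 ± 0.15). Dnajc3 and Sdf2l1, the second a partner of ERdj3, were not called by their standing probe sets (−0.46 and −0.53 at 16 h against no hCG, adjusted p = 0.0934 and 0.0572). One of the other 3 tested Dnajc3 probe sets was higher at 8 h (0.48, 0.0369). The Dnajb9 call at 16 h was lost without either 16 h array (adjusted p 0.0527 and 0.0546), and those of Dnajb11 and Hyou1 from 8 h to 16 h without any 1 of the 4 compared arrays (0.0586 to 0.225). The Hyou1 call at 16 h against no hCG was lost in 5 of 6 such fits (0.0515 to 0.142) and with quantile normalization (0.0604). Without replicate 1 of no hCG, Dnajc3 (−0.69, 0.0169) and Sdf2l1 (−0.70, 0.0251) were called lower at 16 h against no hCG, and Sdf2l1 was so with quantile normalization as well (−0.56, 0.0332).

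Manf and Creld2, both small ER proteins whose transcripts are known to go up under ER stress, fell between 8 h and 16 h. Manf, which can also be secreted, had 13.04 and 13.02 without hCG, 13.01 and 13.04 at 8 h and 12.38 and 12.28 at 16 h. The groups without hCG and at 8 h overlapped, and both 16 h arrays lay below them. Manf fell by 0.69 ± 0.15 from 8 h to 16 h (adjusted p = 0.00961), 1.62-fold lower, after a difference of −0.00 ± 0.15 at 8 h. Creld2, which has disulphide isomerase activity, had 11.67 and 11.67 without hCG, 11.40 and 11.40 at 8 h and 10.75 and 10.61 at 16 h. The groups did not overlap, and 16 h was lowest. It fell by 0.72 ± 0.15 from 8 h to 16 h (adjusted p = 0.00848) and by 0.99 ± 0.15 at 16 h against no hCG (0.000595), 1.98-fold lower. Each gene had 1 probe set. Both calls from 8 h to 16 h were lost in the same 3 of 4 fits without 1 compared array (adjusted p 0.0668 to 0.0822), and both calls at 16 h against no hCG held in every such fit.

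All 5 disulphide genes were called at 16 h against no hCG, 4 higher and 1 lower, where 20.8% of all tested genes went each way. Pdia4, which encodes the isomerase ERp72, had the largest change of the 36 genes and read 9.98 and 10.59 without hCG, 10.65 and 11.25 at 8 h and 12.68 and 12.77 at 16 h. The groups did not overlap, and both 16 h arrays lay over 1 log2 unit above every other array. Pdia4 rose by 1.77 ± 0.25 from 8 h to 16 h (adjusted p = 0.000917), 3.42-fold, and by 2.44 ± 0.25 at 16 h against no hCG (4.39e-05), 5.43-fold. Its difference at 8 h was 0.67 ± 0.25 and not called (0.063), though it was called without replicate 1 of the 8 h group (0.0286) or replicate 2 without hCG (0.00926). Its second probe set was too dim to be tested. P4hb encodes protein disulphide isomerase itself, which is also a subunit of collagen prolyl hydroxylase. It had 13.15 and 13.36 without hCG, 13.56 and 13.80 at 8 h and 13.94 and 14.14 at 16 h, stepwise higher with no groups overlapping. P4hb rose by 0.79 ± 0.17 at 16 h against no hCG (adjusted p = 0.00487), and neither step alone was called (0.42 ± 0.17 and 0.36 ± 0.17). Pdia3, the isomerase that works with calnexin and calreticulin, had 11.35 and 11.84 without hCG, 11.95 and 12.20 at 8 h and 12.40 and 12.26 at 16 h. Its groups were also stepwise higher without overlap, and it rose by 0.74 ± 0.20 at 16 h against no hCG (adjusted p = 0.0144). Pdia6, another isomerase, rose by 0.59 ± 0.16 (0.0174). The second probe sets of Pdia3 and Pdia6 were not called, and on averaging its probe sets the Pdia3 call was lost (0.425, 0.0833). Without replicate 2 of no hCG, Pdia3 was also called higher at 8 h (0.72, 0.0137).

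Ero1b, the oxidase that recharges protein disulphide isomerase, went the other way by its brightest probe set. It had 10.88 and 10.84 without hCG, 10.24 and 10.15 at 8 h and 10.26 and 10.53 at 16 h, with both arrays without hCG above all others. Ero1b fell by 0.67 ± 0.16 at 8 h (adjusted p = 0.00973) and by 0.47 ± 0.16 at 16 h against no hCG (0.0439). Another tested Ero1b probe set was not called (−0.11 and 0.12). Averaged over its probe sets, Ero1b differed by −0.26 at 8 h and −0.19 at 16 h against no hCG. Neither was called (adjusted p = 0.137 and 0.261). Its close relative Ero1a, from the list of other ER folding genes, was called in no comparison. Leaving out 1 array ended the Ero1b call at 8 h in 1 case (without replicate 2 of the 8 h group, adjusted p = 0.0823) and that at 16 h in 5 of 6 cases (0.0675 to 0.232). The Pdia3 call was lost without either 16 h array or replicate 1 without hCG (0.0558 to 0.102), and the Pdia6 call without replicate 2 of the 16 h group or replicate 1 without hCG (0.0567 and 0.111). The P4hb call and both Pdia4 calls held in every such fit.

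**Figure D3:**
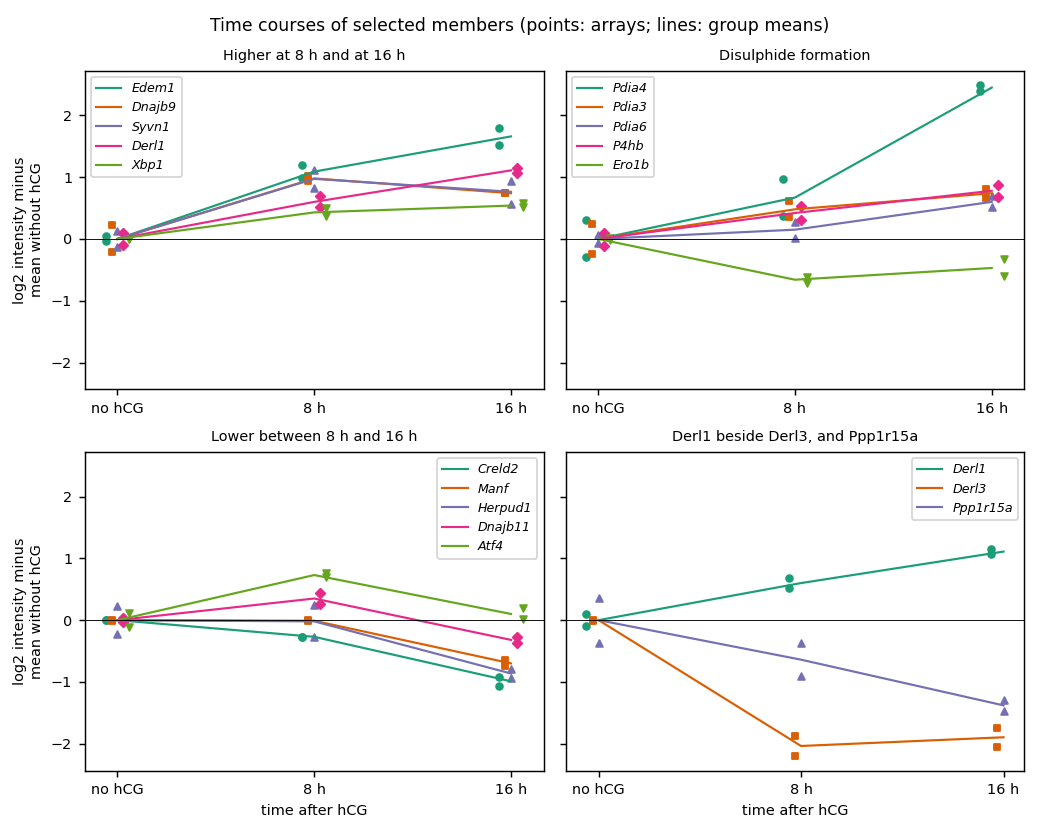
Log2 intensity minus the gene's mean without hCG (vertical axis) for 17 genes without hCG, 8 h and 16 h after it, with points for arrays and lines through group means. Edem1 and Derl1 are higher at each later time, Pdia4 goes up mainly between 8 h and 16 h, Manf, Creld2 and Herpud1 come down in that interval, and Derl3 is about 2 log2 units lower at both later times.

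Degradation genes held the largest rise (Edem1) and the largest fall (Derl3) of the 36 genes at 8 h. Of 8, 3 rose and 1 fell at 8 h (37.5% and 12.5%), where 16.9% and 20.5% of all tested genes did. From 8 h to 16 h 1 rose and 1 fell (12.5% each), against 11.8% and 9.12% of all genes. At 16 h against no hCG 3 rose and 2 fell (37.5% and 25%), against 20.8% each way. Edem1 encodes a mannosidase-like protein that marks misfolded glycoproteins for removal. It had 9.50 and 9.58 without hCG, 10.74 and 10.53 at 8 h and 11.33 and 11.06 at 16 h, stepwise higher with no groups overlapping. Edem1 rose by 1.10 ± 0.17 at 8 h (adjusted p = 0.0007), 2.14-fold, by 0.56 ± 0.17 from 8 h to 16 h (0.0438) and by 1.66 ± 0.17 over both (4.33e-05), 3.15-fold. In the fit as deposited it was the only one of the 36 genes called higher in all 3 comparisons. That rests on a threshold. With quantile normalization Edem1 lost the 8 h to 16 h call (0.52, adjusted p = 0.0506) and Derl1 gained it (0.48, 0.0438). The second Edem1 probe set rose by 0.59 at 8 h and 0.99 at 16 h against no hCG and was not called in between. Syvn1 encodes HRD1, the ubiquitin ligase at the centre of the pathway. It had 9.56 and 9.31 without hCG, 10.56 and 10.26 at 8 h and 10.38 and 10.01 at 16 h, with every array after hCG above both without it and overlap between 8 h and 16 h. Syvn1 rose by 0.97 ± 0.19 at 8 h (adjusted p = 0.00322), 1.96-fold, and by 0.76 ± 0.19 at 16 h against no hCG (0.011). Its second probe set rose at 8 h (0.73, 0.0254) and was not called at 16 h.

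The Derlins, membrane proteins through which substrates leave the ER, did not move together. Derl1 had 11.51 and 11.71 without hCG, 12.13 and 12.30 at 8 h and 12.76 and 12.68 at 16 h, stepwise higher without overlap. It rose by 0.61 ± 0.16 at 8 h (adjusted p = 0.0148) and by 1.11 ± 0.16 at 16 h against no hCG (0.000418), 2.16-fold. The step of 0.50 ± 0.16 from 8 h to 16 h was not called (adjusted p = 0.0554) but was without either array of no hCG (0.0332). All 4 of its probe sets rose over no hCG at both times, by 0.61 to 1.21 at 8 h and 1.11 to 1.70 at 16 h. Derl3, whose transcript is known to be strongly inducible by XBP1 in other cells, had 10.43 and 10.41 without hCG, 8.55 and 8.22 at 8 h and 8.68 and 8.37 at 16 h. All arrays after hCG lay over 1 log2 unit below both without it, and 8 h and 16 h overlapped. Derl3 fell by 2.04 ± 0.18 at 8 h (adjusted p = 2.2e-05), 4.10-fold lower, and by 1.90 ± 0.18 at 16 h against no hCG (2.77e-05), 3.72-fold lower. It had 1 probe set. The oocyte markers fell over the same comparisons, and the part of the oocyte in the Derl3 change was not tested. Derl2 was not called (0.28, 0.17 and 0.45 in the comparisons as ordered above), nor was its second probe set. Without replicate 2 of no hCG it was called higher at 16 h against no hCG (0.63, 0.0216).

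Herpud1 encodes a membrane protein of the HRD1 complex. It had 10.88 and 10.43 without hCG, 10.89 and 10.38 at 8 h and 9.86 and 9.71 at 16 h, with overlap between no hCG and 8 h and both 16 h arrays below all others. Herpud1 fell by 0.85 ± 0.22 from 8 h to 16 h (adjusted p = 0.0241) and by 0.87 ± 0.22 at 16 h against no hCG (0.0108), and its second probe set fell in the last comparison too (−0.77, 0.0101). Sel1l, the partner of HRD1, and Edem2 were not called by their standing probe sets, at −0.24 and 0.52 for 16 h against no hCG. Edem2 was called higher there without replicate 2 of the 16 h group (0.79, 0.0198), and its second probe set was too dim to be tested. For Sel1l, 2 of 4 other probe sets rose there (0.67 and 0.65), so its probe sets do not give 1 direction. Without 1 array, the Derl1 call at 8 h was lost in 2 cases (adjusted p 0.0596 and 0.134, without replicate 1 of no hCG or replicate 2 of 8 h), and that of Edem1 from 8 h to 16 h in all 4 fits without a compared array (0.0733 to 0.288). The Herpud1 calls were lost in 3 fits each (0.0508 to 0.215) and the Syvn1 call at 16 h without replicate 1 of that group (0.101). The calls of Derl3, and of Edem1 and Derl1 at 16 h against no hCG, held in every such fit.

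The genes were also split by the ER stress response element, and the difference between the resulting sets was not tested. Of the 10 genes with the element, 1 rose (Syvn1) and 2 fell (Derl3 and Ero1b) at 8 h, none rose and 1 fell (Creld2) from 8 h to 16 h, and 2 rose (Pdia6 and Syvn1) and 3 fell (Derl3, Creld2 and Ero1b) at 16 h against no hCG. The other 5, Hspa5, Hsp90b1, Calr, Canx and Dnajc3, were called in no comparison. Of the 21 genes whose windows lacked the element, 4 rose and 1 fell, 3 rose and 3 fell, and 6 rose and 2 fell. Edem1, which rose each time, is among them, but its window (chr6:108828391-108828690) lies inside the annotated gene. That gene starts at position 108824045, and the bases before this position were not searched. Shares over all tested genes in the same order were 16.9% and 20.5%, 11.8% and 9.12%, and 20.8% each way. Medians were 0.15, 0.14 and 0.10 with the element and 0.30, 0.06 and 0.21 without it. The 5 genes without a window, named above, are in neither set. Both genes with the related element, Dnajb11 and Herpud1, fell from 8 h to 16 h. Of the 4 genes with the core TGATGNAA, Herpud1 alone was called.

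**Figure D4:**
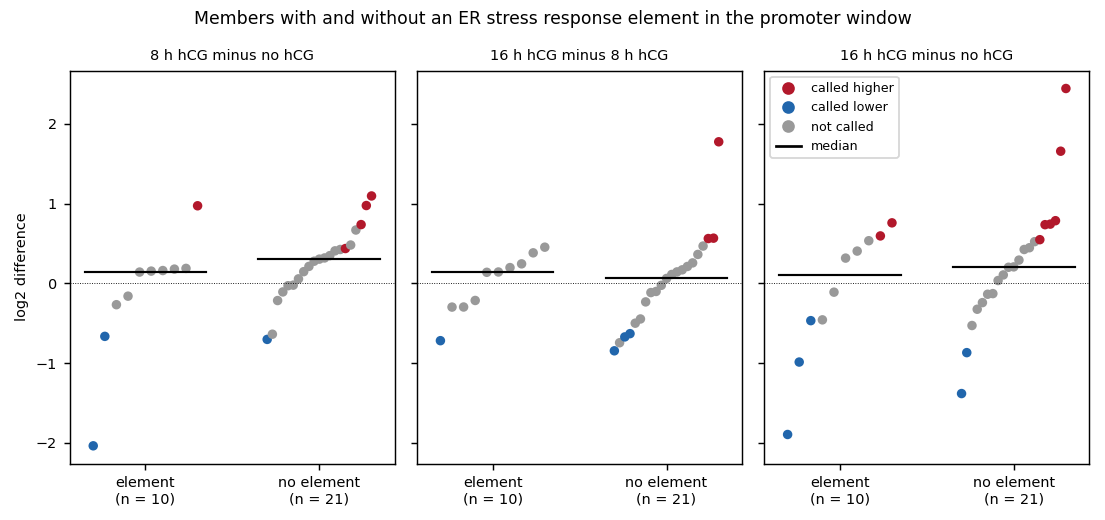
Log2 difference (vertical axis) of the 10 genes with the ER stress response element in the promoter window and the 21 genes whose window lacks it, in 3 panels (left to right 8 h over no hCG, 16 h over 8 h, 16 h over no hCG). Points are genes, red where called higher, blue where called lower and grey where not called, and bars are medians, which lie between 0.06 and 0.30 in every panel.

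Of the translocation channel, Sec61a1, its pore subunit, rose by 0.45 ± 0.15 at 8 h (adjusted p = 0.0416) and Sec61b was not called (0.21 ± 0.17). Of the 5 other Sec61a1 probe sets 1 rose at 8 h (0.55, 0.0298), and another was lower at 16 h against no hCG (−1.11, 0.0276). Without replicate 2 of no hCG, Sec61b was called higher at 16 h against no hCG (0.55, 0.0386). The Sec61a1 call was lost on leaving out any 1 of the 6 arrays (adjusted p 0.0605 to 0.269).

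The 4 targets of the integrated stress response showed 1 called change, a fall of Ppp1r15a at 16 h against no hCG, where 20.8% of all tested genes fell. This gene encodes GADD34, which brings a phosphatase to eIF2alpha and so ends the translation block. It had 11.90 and 11.17 without hCG, 11.17 and 10.63 at 8 h and 10.24 and 10.07 at 16 h. The arrays at 16 h lay below all others, and the lower array without hCG and the higher array at 8 h both read 11.17. Ppp1r15a fell by 1.38 ± 0.26 at 16 h against no hCG (adjusted p = 0.00216), 2.61-fold lower. The steps of −0.64 ± 0.26 and −0.75 ± 0.26 were not called (0.0877 and 0.0783). Replicate 1 was the higher array in each group. Without replicate 2 of no hCG the first step was called (−1.004, 0.00643), and without either array of no hCG the second was (0.0161). Trib3, a pseudokinase gene, Chac1, a glutathione-degrading enzyme gene, and Asns, asparagine synthetase, all classic ATF4 and CHOP targets, were not called, with differences between −0.11 and 0.30 over the comparisons. The second probe set of Trib3 read 0.52 at 8 h and 0.57 at 16 h against no hCG without being called (0.0979 and 0.0664), and that of Asns was not called. Averaged over both, Trib3 was called at 16 h against no hCG (0.39, 0.038). By their standing probe sets, Trib3 and Chac1 had low values, between 6.32 and 7.07 on all arrays, and their differences may be understated.

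Genes around the 36 were counted from lists of the same pathways. The shares to read them against are those of all tested genes, 16.9% higher and 20.5% lower at 8 h, 11.8% and 9.12% from 8 h to 16 h, and 20.8% each way at 16 h against no hCG. Of 22 other degradation genes tested, 6 rose and 1 fell at 8 h (27.3% and 4.55%), 1 rose (Os9) and 1 fell from 8 h to 16 h (4.55% each), and 11 rose and 1 fell at 16 h against no hCG (50% and 4.55%). Selenok, a selenoprotein of the ER membrane, rose by 1.12 ± 0.16 at 8 h, and Ube2j1, a ubiquitin-conjugating enzyme of the pathway, by 0.77 ± 0.17 at 16 h against no hCG. The 1 that fell was Sel1l3 (−1.52 ± 0.19 and −2.20 ± 0.19). Of 26 other folding genes, 6 rose and 2 fell at 8 h (23.1% and 7.69%), 3 rose and none fell from 8 h to 16 h (11.5% and 0%), and 9 rose and 3 fell at 16 h against no hCG (34.6% and 11.5%). Sil1, a nucleotide exchange factor of BiP, fell by 1.74 ± 0.15 at 8 h and rose by 0.73 ± 0.15 afterwards. The thioredoxin-like gene Tmx1 rose by 1.31 ± 0.17 at 8 h, and Tmx3 by 1.39 ± 0.20 at 16 h against no hCG. Of 22 glycosylation genes, 1 rose and 1 fell at 8 h (4.55% each), 1 rose and none fell from 8 h to 16 h, and 7 rose and 2 fell at 16 h against no hCG (31.8% and 9.09%). Uggt1, which re-tags misfolded glycoproteins for calnexin, rose there by 0.69 ± 0.15.

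Of 20 further translocation genes, 4 rose and 1 fell at 8 h (20% and 5%), none were called from 8 h to 16 h, and 5 rose and 1 fell at 16 h against no hCG (25% and 5%). Sec63, a channel partner that recruits BiP, rose by 1.11 ± 0.17 at 8 h, and Tram2, a channel-associated protein gene, fell by 1.84 ± 0.16. Of 28 tested genes of COPII transport, which carries cargo from the ER to the Golgi, 6 rose and none fell at 8 h (21.4% and 0%), none rose and 3 fell from 8 h to 16 h (0% and 10.7%), and 5 rose and 1 fell at 16 h against no hCG (17.9% and 3.57%). The coat gene Sec23b rose by 0.98 ± 0.15 at 8 h and fell by 0.55 ± 0.15 afterwards. The 19 other sensor and kinase genes split evenly at 8 h, with 6 higher and 6 lower (31.6% each). From 8 h to 16 h 5 rose and none fell (26.3% and 0%), and at 16 h against no hCG 7 rose and 6 fell (36.8% and 31.6%). Nupr1, a stress-inducible nuclear protein gene, rose by 2.91 ± 0.22 at 8 h and 3.69 ± 0.22 at 16 h against no hCG, and the membrane-bound factor genes Creb3 (1.97 ± 0.16 at 8 h) and Creb3l1 (2.16 ± 0.20 at 16 h against no hCG) rose too. Creb3l4, a relative of Creb3, and Map3k5, a kinase gene, both named after their values were seen, fell by 1.67 and 1.65 at 8 h. Of 28 other ATF4-type targets, 9 rose and 3 fell at 8 h (32.1% and 10.7%), 3 rose and 6 fell from 8 h to 16 h (10.7% and 21.4%), and 6 rose and 7 fell at 16 h against no hCG (21.4% and 25%). Ddit4, an inhibitor of mTOR signalling, rose by 2.38 ± 0.22 at 8 h. The cystine carrier gene Slc7a11 rose by 1.87 ± 0.17 at 8 h and fell by 2.74 ± 0.17 from 8 h to 16 h, and the cationic amino acid carrier gene Slc7a1 rose by 2.08 ± 0.18 at 16 h against no hCG. These lists are described by counts alone and were not tested as lists.

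**Figure D5:**
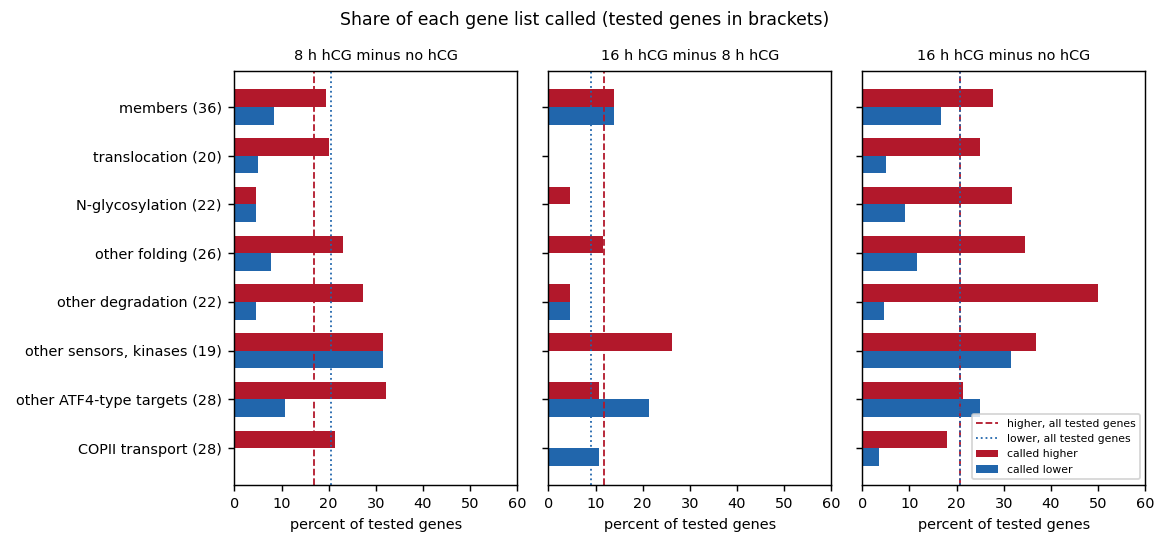
Percent of the tested genes of each list called higher (red bars) or lower (blue bars) in 3 panels (left to right 8 h over no hCG, 16 h over 8 h, 16 h over no hCG), with the shares over all 13559 tested genes as a red dashed line (higher) and a blue dotted line (lower). At 16 h against no hCG, 50% of the other degradation genes were higher, and 27.8% of the 36 genes.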

How the data were processed

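The deposited table gives 1 value per probe set and array, read as log2 intensity from its range and used as deposited. The authors' software, background correction and normalization are not given in the sources used here. Array medians differed by at most 0.125. Of 45101 probe sets, 64 controls were left out. The platform annotation gave 34945 probe sets 1 symbol, 932 several and 9160 none. Probe sets averaging below the 40th percentile (5.62) were not tested, which left 27022, covering 13559 genes by the probe set with the highest mean. Signal over background is unknown, so small values may understate changes, and 2 arrays a group limit the precision.

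Groups came from the sample titles. Group means of all 6 arrays were estimated together in limma 3.58.1 (R 4.3.3, lmFit and eBayes, 3 residual and 6.43 prior degrees of freedom, two-sided, Benjamini-Hochberg over 27022 probe sets). On simulated data for 8 h against no hCG over 27022 probe sets, the fit recovered 95% of 100 changes of 1 and 99% of 100 changes of 2 on the log2 scale, with 16 false calls. The simulated noise was independent between arrays, and far fewer probe sets changed than were called in the data. Changes below 1, as many calls here are, were not simulated, so these figures do not give the error of the calls reported. Values on every array are given for the sensors, their factors, Hspa5 and the 14 other called genes with the largest differences, and up to 3 called genes per further list and comparison are named. The genes and lists were chosen with earlier results of these data known. Promoter windows are RefSeq sequences of GRCm38.p6, matched by symbol.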

Additional observations from a re-analysis of the deposited data

How the results depend on the processing

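Alternatives were quantile normalization, 2 other settings of the filter on dim probe sets, only the compared groups in the fit, the mean of a gene's probe sets, no probe sets prone to cross-hybridisation, eBayes with trend and leaving out each array. Ern1 at 8 h turned round, to 0.11 with the mean of its probe sets, which disagree. Calls of the 36 genes that held in every alternative run for them numbered 4 of 10 at 8 h (Derl3, Dnajb9, Edem1 and Syvn1), 1 of 10 from 8 h to 16 h (Pdia4) and 8 of 16 at 16 h against no hCG (Creld2, Derl1, Derl3, Edem1, Manf, P4hb, Pdia4 and Ppp1r15a). Derl3 and P4hb have no value in the fit without these name endings, since each has only an _a_at probe set. Leaving out 1 array gave 5 to 11 called genes at 8 h, 1 to 12 from 8 h to 16 h and 9 to 18 over both, beside 10, 10 and 16. The lowest counts came without replicate 2 of the 8 h group (5), without replicate 2 of the 16 h group or replicate 1 of the 8 h group (1 each), and without replicate 1 of the 16 h group (9). Over all probe sets, the counts were 6109 to 9450 and 2518 to 6340 in the first and second comparisons, beside 9167 and 4922. With 1 value per gene (12720 tested) they were 5154, 3041 and 5614, beside 9167, 4922 and 10072, since fewer values were tested. Of the genes not called, 11, 7 and 5 changed sign in at least 1 alternative while staying uncalled. Where the cause of a lost call is not named, it was not tested.

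With the replicate number as a block, 13, 12 and 19 of the 36 genes were called, every call without the block among them. Labels do not say that a number marks a shared collection. Deviations of same-numbered arrays correlated at 0.468 between no hCG and 8 h, 0.001 between no hCG and 16 h and 0.135 between 8 h and 16 h. Over all probe sets the replicate block gave 10117, 5812 and 11045 calls.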

Other observations

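Replicates of these genes often differed the same way in every group. In 20 of the 36 genes the same replicate number was the higher one in all 3 groups (replicate 2 in 12, replicate 1 in 8), as it was in 9155 of 27022 tested probe sets (33.9%). On replicate 1, Ddit3 was higher by 0.71 in the pair with no hCG, by 0.58 in the 8 h pair and by 0.50 in the 16 h pair. Ppp1r15a was higher there by 0.73, 0.54 and 0.17. On replicate 2, Pdia4 was higher: replicate 1 minus replicate 2 was −0.61, −0.60 and −0.09. The median size of the gap between replicates was 0.235, 0.183 and 0.149 for the 36 genes, beside 0.222, 0.149 and 0.168 over all tested probe sets.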
